A study of Mus musculus with 6 samples.

Results

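Ribosomal protein genes were compared between astrocytes of 2 regions of the adult mouse brain, the diencephalon and the cortical grey matter. Members were all genes whose symbol starts with Rpl, Rps, Mrpl or Mrps followed by the usual number or letter, without the ribosomal S6 kinases (Rps6k) and without symbols that hold "-ps", which mark pseudogenes. The rule found 164 of 23955 genes, of which 87 belong to the cytosolic ribosome and 77 to the mitochondrial ribosome by their symbols. One of the 87, Rps19bp1, matches the symbol rule but encodes a protein that binds Rps19 rather than a subunit of the ribosome. Mitochondrial member Mrps36 is likewise now known as a component of the oxoglutarate dehydrogenase complex. No measured value entered the rule.

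The 3 diencephalon libraries and the 3 cortical grey matter libraries came from C57BL/6 mice of 3 months and both sexes, each library a pool of 3 mice. All of these mice, in both groups, carried 1 allele of a tamoxifen-dependent Cre recombinase in the Slc1a3 locus (Slc1a3tm1(cre/ERT2)Mgoe, genotype Slc1a3 +/-), a CAG-cat,-EGFP reporter transgene (GFP+) and floxed Rpl22HA on both chromosomes (Rpl22HA fl/fl), and all were given tamoxifen by oral gavage from 9 weeks. Recombination makes Slc1a3-expressing cells build haemagglutinin-tagged Rpl22 into their ribosomes (RiboTag), so ribosome-bound mRNA can be purified from a tissue lysate with an antibody to the tag. The diencephalon was taken without the zone around the third ventricle, and the cortex without meninges and white matter. Slc1a3 is known to be active in astrocytes and in related glia, so the Cre driver and not a cell sort defines the purified ribosomes, and the unpurified tissue RNA was not analysed here. Region is the comparison the design makes.

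The cytosolic ribosome, which translates nuclear mRNA, is made of a large subunit (Rpl proteins) and a small subunit (Rps proteins) on a ribosomal RNA scaffold. Mammalian mRNAs of cytosolic ribosomal proteins characteristically begin with a cytosine followed by a run of pyrimidines, the 5′ terminal oligopyrimidine (TOP) motif, through which mTOR signalling controls their loading onto ribosomes. The mitochondrial ribosome is also built from nuclear-encoded proteins (Mrpl and Mrps), which are made in the cytosol and imported to translate the few mRNAs of the mitochondrial genome. Some of these proteins descend from the same ancestors as a cytosolic counterpart and others exist only in mitochondria.

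The starts of 8 members described below are shown, from both ends of the range of regional differences, as examples of starts with and without a TOP-like pyrimidine run. They were chosen after their values were seen. Each window runs from 15 bases before the annotated transcription start to 15 bases from it onward, in RefSeq annotation of build GRCm38.p6, and capitals mark a cytosine followed by at least 5 pyrimidines that begins within 5 bases of the start. The windows with such a run are those of Rps24 (chr14:24490663-24490692, plus strand), Rps15a (chr7:118116133-118116162, minus strand), Rpl31 (chr1:39367836-39367865, plus strand) and Mrps33 (chr6:39810922-39810951, minus strand).
Rps24: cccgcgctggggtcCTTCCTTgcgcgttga
Rps15a: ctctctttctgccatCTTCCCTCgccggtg
Rpl31: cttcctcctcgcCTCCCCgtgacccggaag
Mrps33: ttccgcctctctcctgCTCTCTggagctgg
The windows without one are those of Rps7 (chr12:28635939-28635968, minus strand), Rpl41 (chr10:128549154-128549183, minus strand), Mrpl30 (chr1:37890462-37890491, plus strand) and Mrps5 (chr2:127587411-127587440, plus strand).
Rps7: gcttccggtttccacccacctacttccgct
Rpl41: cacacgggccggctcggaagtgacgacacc
Mrpl30: gaaccaaagaaccgtacggtctgtgacggc
Mrps5: gctgctccggctccagcatggcggcggccg
A run of this kind stood at 28 of 78 promoters of the 66 cytosolic members that matched the RefSeq table (35.9%), at 4 of 74 promoters of the 68 mitochondrial members that matched (5.41%), and at 3352 of all 32851 promoters (10.2%). A start annotated a few bases off would hide the motif, so a window without the run says only that these letters are not at the annotated start.

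Library totals ran from 1733140 to 2334234 counts, and the common biological coefficient of variation was 13.6%. The libraries differed in their share of male RNA: the summed CPM of the Y-linked genes Ddx3y, Eif2s3y, Kdm5d and Uty was 153, 8.44 and 166 in the diencephalon libraries and 145, 149 and 0 in the cortical grey matter libraries. Diencephalon replicate 2 and cortical grey matter replicate 3 therefore stand apart from the other libraries, and results are also given without both. CPM is the rounded expected count per 1000000 counts of the TMM-scaled library, and a log2 difference is diencephalon over cortical grey matter throughout. In bulk libraries such as these, fewer cells of a type and less RNA per cell cannot be told apart.

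Cytosolic ribosomal protein mRNAs made up a smaller part of the ribosome-bound mRNA in the diencephalon. Their summed level was 1811, 1730 and 1759 CPM in the diencephalon libraries and 2630, 2961 and 2463 CPM in the cortical grey matter libraries. The groups did not overlap, and the diencephalon mean was 0.658 times the cortical mean. Summed mitochondrial members gave 721, 625 and 639 CPM in the diencephalon and 819, 885 and 761 CPM in cortical grey matter. These groups did not overlap either, with a diencephalon mean 0.805 times the cortical mean. As a share of the unscaled counts, mitochondrial members did overlap, at 0.0644% to 0.0741% in the diencephalon and 0.0707% to 0.0854% in cortical grey matter. The cytosolic share did not, at 0.178% to 0.186% in the diencephalon and 0.229% to 0.286% in cortical grey matter. The cytosolic sum was 2.51, 2.77 and 2.75 times the mitochondrial sum in the diencephalon libraries and 3.21, 3.34 and 3.23 times in the cortical grey matter libraries, and every diencephalon ratio lay below every cortical one. With 3 libraries against 3, the smallest p that a two-sided exact permutation test of such a sum allows is 0.1, so none is given.

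**Figure D1:**
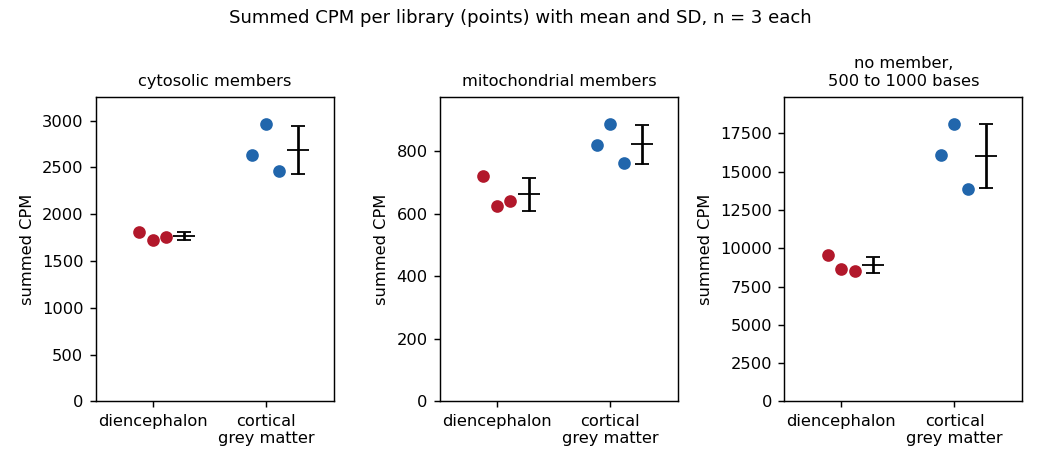
Summed CPM (vertical axes, linear from 0) of cytosolic members, mitochondrial members and genes of 500 to 1000 bases that are no member, in each diencephalon library (left, 3 points) and cortical grey matter library (right, 3 points), with the mean and SD as a bar. In all 3 panels every diencephalon library lies below every cortical library, and the third panel shows the widest gap (8904 ± 550 against 16010 ± 2099 CPM). A sum is weighted toward abundant genes. Gene by gene the median log2 difference, diencephalon over cortical grey matter, was -0.61 for tested cytosolic members, -0.28 for tested mitochondrial members and -0.41 for the genes of the third panel.

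Per length, the cytosolic mRNAs were the more abundant class. In TPM, which is scaled by transcript length, cytosolic members summed to 9971 ± 181 TPM in the diencephalon and 13380 ± 1170 TPM in the cortex, and mitochondrial members to 2270 ± 88.7 TPM in the diencephalon and 2605 ± 141 TPM in the cortex (mean ± SD over 3 libraries). The highest mean TPM of the cytosolic class belonged to Rpl31, Rpl11 and Rpl10. Rpl31, a protein at the rim of the exit tunnel, averaged 398 ± 33.7 TPM in the diencephalon and 740 ± 109 TPM in the cortex (SD over 3 libraries). Rpl11, part of the 5S ribonucleoprotein that restrains Mdm2 when ribosome assembly fails, averaged 459 ± 30.6 TPM in the diencephalon and 587 ± 113 TPM in cortical grey matter. Rpl10, which closes maturation of the large subunit at the tRNA sites, averaged 504 ± 37 TPM in the diencephalon and 421 ± 97.2 TPM in cortical grey matter. The highest mitochondrial members were Mrpl30 (87.6 ± 32.6 TPM in the diencephalon, 189 ± 47 TPM in cortical grey matter), Mrps21 (104 ± 45 TPM in the diencephalon, 108 ± 43.8 TPM in cortical grey matter) and Mrpl42 (77.2 ± 18.4 TPM in the diencephalon, 114 ± 43.4 TPM in cortical grey matter).

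Of the members, 70 cytosolic and 49 mitochondrial genes had enough counts to be tested, and 17 and 28 did not. Those not tested averaged at most 4.97 CPM (cytosolic) and 5.75 CPM (mitochondrial) over the 6 libraries. Rps27, Rpl10l, Rpl3l and Rpl39l were listed at 0 in all 6 libraries. For Rps27 the near-identical retrogene Rps27rt held counts (9.36, 6.33 and 4.70 CPM in the diencephalon, 14.0, 16.5 and 4.97 CPM in cortical grey matter), and how the authors' counting split reads between the copies cannot be seen from the files. Rpl10l, Rpl3l and Rpl39l are paralogues known for expression in testis or muscle. A single library at 0 allows up to 3 counts, which is 1.31 to 1.86 CPM here.

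In edgeR's quasi-likelihood test with Benjamini-Hochberg adjustment over all 10568 tested genes, 28 of the 70 tested cytosolic members were lower in the diencephalon and 0 were higher, while 14.8% of all tested genes were lower and 14.9% higher. Without cortical grey matter replicate 2 the count was 17, and without both libraries low in Y-linked genes it was 29. A negative difference, called or not, was seen for 66 of the 70. No overlap between the regions' libraries was seen for 40 members, all lower in the diencephalon, against 20.8% of all tested genes. The median log2 difference of the tested cytosolic members was -0.61 (quartiles -0.89 and -0.34), beside 0.01 over all tested genes. For the count of 0 higher, 1 cytosolic member had an unadjusted p under 0.05 on the higher side, and DESeq2 also called 0.

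Of the 49 tested mitochondrial members, 5 were lower in the diencephalon in the same test and 0 were higher. That share is below the 14.8% of all tested genes. The median log2 difference was -0.28 (quartiles -0.59 and -0.05), with 38 members negative and 11 positive, and 8 did not overlap between the regions, all lower in the diencephalon, against 20.8% of all tested genes that were lower without overlap. For the higher side, 1 mitochondrial member had an unadjusted p under 0.05, and DESeq2 called 0. DESeq2 called 2 members lower, 3 were called without diencephalon replicate 3, and 4 were called without both libraries low in Y-linked genes. The mitochondrial members were measured less precisely: their median SE was 0.37 and their median level 10.1 CPM, against 0.27 and 19.4 CPM for the cytosolic members. At a mean of 10 to 40 CPM, 4 of 23 mitochondrial members were lower (17.4%) and 18 of 45 cytosolic members (40%). Of the tested genes at that level that are no member, 414 of 4055 were lower (10.2%), so there the mitochondrial share was not below the other genes. The difference between the classes in share of calls was not tested.

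The lowest cytosolic member was Rps7, a small-subunit protein needed for processing of 18S rRNA. It had 14.5, 7.91 and 10.5 CPM in the diencephalon and 32.3, 39.4 and 21.7 CPM in cortical grey matter, and every diencephalon library lay below every cortical one. Its log2 difference was -1.50 ± 0.28 (SE; edgeR adjusted p = 0.000321), or 2.83-fold lower. Rps4x, an X-linked small-subunit protein, had 18.7, 13.2 and 12.5 CPM in the diencephalon and 31.8, 36.7 and 34.2 CPM in cortical grey matter. Without overlap between the regions, its log2 difference was -1.20 ± 0.24 (edgeR adjusted p = 0.000504), and without the libraries low in Y-linked genes it was -1.12 (adjusted p = 0.00397). Rps24, a small-subunit protein mutated in some patients with Diamond-Blackfan anaemia, had 18.2, 17.4 and 10.97 CPM in the diencephalon and 37.5, 34.6 and 32.3 CPM in cortical grey matter. Its log2 difference was -1.16 ± 0.24 (edgeR adjusted p = 0.000733), again with no overlap.

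Next in order came Rpl24, Rps29 and Rpl41. Rpl24, which bridges the subunits, had 9.82, 9.49 and 6.27 CPM in the diencephalon and 16.6, 21.8 and 19.3 CPM in cortical grey matter (log2 difference -1.16 ± 0.30, edgeR adjusted p = 0.00543). Rps29, a zinc-binding protein of the small-subunit head, had 9.82, 8.44 and 7.84 CPM in the diencephalon and 19.6, 18.1 and 20.5 CPM in cortical grey matter (log2 difference -1.15 ± 0.29, edgeR adjusted p = 0.00407). Rpl41, the shortest ribosomal protein and almost wholly basic, had 12.6, 10.5 and 12.02 CPM in the diencephalon and 18.3, 29.8 and 29.8 CPM in cortical grey matter (log2 difference -1.12 ± 0.27, edgeR adjusted p = 0.00327). None of these overlapped between the regions. All 3 have short transcripts, of 679, 390 and 449 bases, and none passed once the trend of the difference on transcript length was removed (edgeR adjusted p = 0.0712 for Rpl24, 0.195 for Rps29 and 0.154 for Rpl41).

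The call with the smallest adjusted p among the members was Rpl31, at a higher level than those above. It had 97.8, 85.4 and 99.3 CPM in the diencephalon and 169, 235 and 199.998 CPM in cortical grey matter. Its log2 difference was -1.09 ± 0.14 (edgeR adjusted p = 3.93e-06), and it was -0.81 with the length trend removed (adjusted p = 0.000137). RSEM shared its reads with other transcripts in all 6 libraries, and 12 near-identical pseudogene transcripts are annotated. Rpl4, a large-subunit protein with a long loop into the exit tunnel, had 116, 87.5 and 102 CPM in the diencephalon and 157, 204 and 175 CPM in cortical grey matter (log2 difference -0.81 ± 0.14, edgeR adjusted p = 0.000169). Rpsa, the small-subunit protein also known as the laminin receptor, had 50.5, 44.3 and 45.5 CPM in the diencephalon and 81.6, 105 and 75.2 CPM in cortical grey matter (log2 difference -0.90 ± 0.17, edgeR adjusted p = 0.000329). For both, the highest diencephalon library lay below the lowest cortical library. The difference of Rpl11 was smaller, -0.57 ± 0.18 (edgeR adjusted p = 0.0179), and it did not pass without diencephalon replicate 3 (adjusted p = 0.0694) or without cortical grey matter replicate 2 (adjusted p = 0.0754). It also did not pass without both libraries low in Y-linked genes (adjusted p = 0.0698) or on the TPM scales (limma adjusted p = 0.155 to 0.175), and it was -0.09 with the length trend removed (edgeR adjusted p = 0.745).

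Rpl21 and Rpl6, both of the large subunit, were lower in the same way at high counts. Rpl21 had 73.0, 68.5 and 69.0 CPM in the diencephalon and 129, 137 and 115 CPM in cortical grey matter (log2 difference -0.86 ± 0.14, edgeR adjusted p = 6.29e-05). For Rpl21, 57 near-identical pseudogene transcripts are annotated, and its expected counts were whole, within 0.001 of a count, in all 6 libraries. Rpl6 had 54.3, 44.3 and 43.9 CPM in the diencephalon and 82.9, 91.0 and 70.8 CPM in cortical grey matter (log2 difference -0.78 ± 0.17, edgeR adjusted p = 0.00119). No library of either region crossed into the range of the other for these genes. Further members called lower, among them Rps23, Rps16, Rpl17, Rps25, Rpl36, Rpl18, Rpl19, Rps9, Rpl32, Rpl13, Rpl27 and Rpl7a, had log2 differences from -1.08 (Rps23) to -0.63 (Rpl7a). None of these named genes passed with the length trend removed. Rpl32 lost its call whichever library was left out, and Rpl17 did not pass without cortical grey matter replicate 1 (edgeR adjusted p = 0.380). Rps16 passed in 8 of 18 and Rpl13 in 9 of 19 alternative fits. Of the 28 calls, 16 passed with each library left out in turn.

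**Figure D2:**
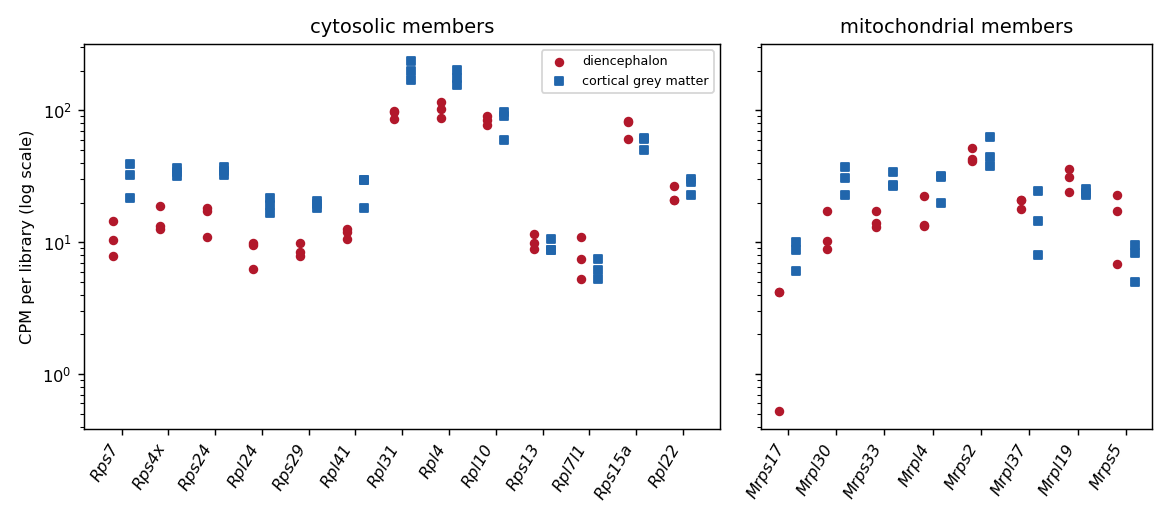
CPM per library (log axis) of 13 cytosolic members (left panel) and 8 mitochondrial members (right panel), with diencephalon libraries as red circles on the left of each gene and cortical grey matter libraries as blue squares on the right. Rps7 through Rpl4, and Mrps17, Mrpl30 and Mrps33, show no overlap between the regions, while Mrpl4, Rpl10, Rps15a, Rpl22 and Mrps5 overlap.

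A few cytosolic members lay at the other end. The highest was Rps15a, with 60.3, 83.3 and 81.5 CPM in the diencephalon and 61.1, 50.04 and 62.1 CPM in cortical grey matter. The regions overlapped, and the log2 difference of 0.38 ± 0.17 did not pass (edgeR adjusted p = 0.108), except without diencephalon replicate 1, where it was 0.51 (adjusted p = 0.0401). Its gene model in the files is 5134 bases long, the longest of the class, and it carries a pyrimidine run at its start like Rps24. Rpl7l1, a paralogue of Rpl7 that takes part in early large-subunit assembly, gave 0.33 ± 0.40, Rps13 gave 0.11 ± 0.33, Rpl10 gave 0.04 ± 0.17, Rps21 gave -0.05 ± 0.41 and Rpl29 gave -0.05 ± 0.33 (log2 difference, SE). None of the 5 passed, and all overlapped between the regions. Rpl10 had 85.2, 78.0 and 90.4 CPM in the diencephalon and 89.9, 96.4 and 59.6 CPM in cortical grey matter, so a highly expressed large-subunit mRNA lay outside the pattern of Rpl31 and Rpl4.

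Rpl22, whose protein carries the tag, had 26.7, 21.1 and 20.9 CPM in the diencephalon and 22.7, 30.3 and 28.6 CPM in cortical grey matter. These overlap, and the log2 difference was -0.24 ± 0.23 (edgeR adjusted p = 0.474). Its paralogue Rpl22l1 had 0.523 to 3.69 CPM in the diencephalon and 1.06 to 3.73 CPM in cortical grey matter and was too low to test. Of the 19 genes listed as paralogue pairs, 10 were tested, 3 were lower (Rps4x, Rpl36al and Rpl39) and 0 higher, with a median log2 difference of -0.34. Among all tested genes 14.8% were lower and 14.9% higher. Rpl36al, the autosomal copy of X-linked Rpl36a, had 11.2, 16.3 and 12.5 CPM in the diencephalon and 21.8, 28.2 and 28.6 CPM in cortical grey matter (log2 difference -0.96 ± 0.26, edgeR adjusted p = 0.00681), and did not pass with the length trend removed (adjusted p = 0.233). Rpl36a itself was too low to test, with 1.58 to 4.18 CPM in the diencephalon and 4.36 to 10.1 CPM in cortical grey matter. Rpl39 had 4.21, 9.49 and 5.75 CPM in the diencephalon and 15.7, 13.8 and 9.94 CPM in cortical grey matter (log2 difference -1.04 ± 0.37, edgeR adjusted p = 0.0357). Its call was lost when diencephalon replicate 1 (adjusted p = 0.142) or 3 (0.116), or cortical grey matter replicate 1 (0.140) or 2 (0.0890), was left out. It was also lost with DESeq2 (adjusted p = 0.0808), on the TPM scales (limma adjusted p = 0.0728 to 0.0797) and with the length trend removed, where the log2 difference was -0.42 (edgeR adjusted p = 0.430).

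In the large subunit of the cytosolic ribosome 18 of 42 tested members were lower with a median log2 difference of -0.61, and in the small subunit 10 of 28 with a median of -0.64, beside 14.8% of all tested genes lower. Whether the subunits differed was not tested. The acidic stalk proteins, which recruit elongation factors, did not pass: Rplp0 gave -0.29 ± 0.30 and Rplp2 -0.85 ± 0.42 (log2 difference, SE), and Rplp1 was too low to test. In the mitochondrial ribosome 2 of 32 tested large-subunit members (median -0.27) and 3 of 17 tested small-subunit members (median -0.28) were lower.

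The 5 mitochondrial members called lower were Mrps17, Mrpl30, Mrps33, Mrpl4 and Mrps25. Mrps17 had 4.21, 4.22 and 0.523 CPM in the diencephalon and 6.11, 10.1 and 8.70 CPM in cortical grey matter (log2 difference -1.43 ± 0.50, edgeR adjusted p = 0.0368). It passed the count filter through its cortical libraries alone, with 18 counts in the diencephalon and 47 in cortical grey matter. Its test is therefore not independent of that filter. Mrpl30, the homologue of bacterial L30, had 10.3, 8.96 and 17.2 CPM in the diencephalon and 31.0, 22.9 and 37.3 CPM in cortical grey matter (log2 difference -1.31 ± 0.28, edgeR adjusted p = 0.00107). Mrps33, a small-subunit protein with no bacterial counterpart, had 13.1, 17.4 and 14.1 CPM in the diencephalon and 26.6, 34.1 and 27.3 CPM in cortical grey matter (log2 difference -0.98 ± 0.24, edgeR adjusted p = 0.00372). The regions did not overlap for any of these 3. Mrpl4 gave -0.76 ± 0.27 (edgeR adjusted p = 0.0372) with overlapping regions, and Mrps25, whose gene model of 6065 bases is long for the class, gave -0.57 ± 0.21 (edgeR adjusted p = 0.0422).

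Mrpl30 and Mrps33 passed with every library left out in turn and in all 19 alternative settings. Mrps17 did not pass without diencephalon replicate 3 (adjusted p = 0.183), cortical grey matter replicate 2 (0.142) or cortical grey matter replicate 3 (0.0532). Mrpl4 did not pass without diencephalon replicate 2 (adjusted p = 0.142) or 3 (0.153), or cortical grey matter replicate 1 (0.136) or 2 (0.124). Mrps25 did not pass without diencephalon replicate 2 (adjusted p = 0.116) or 3 (0.170), or cortical grey matter replicate 2 (0.153) or 3 (0.0664). DESeq2 did not call these 3 genes (adjusted p = 0.0729 for Mrps17, 0.0729 for Mrpl4 and 0.0811 for Mrps25), and neither did limma on log2(TPM + 1) (adjusted p = 0.106, 0.139 and 0.301 for the same genes). With the length trend removed, Mrps17 (edgeR adjusted p = 0.0809) and Mrpl4 (0.123) did not pass. Without both libraries low in Y-linked genes, Mrps17 (edgeR adjusted p = 0.0519) and Mrps25 (0.153) did not pass.

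Other low mitochondrial members were Mrpl11 (-0.96 ± 0.42), Mrpl13 (-0.89 ± 0.54) and Mrpl15 (-0.87 ± 0.43), none of which passed (log2 difference, SE). Mrpl11, like Mrps17, entered the test through its cortical libraries alone (25 counts in the diencephalon, 47 in cortical grey matter). At the other end, Mrps5, a small-subunit protein of the mRNA entry side, had 17.3, 6.86 and 23.0 CPM in the diencephalon and 8.29, 9.58 and 4.97 CPM in cortical grey matter. Diencephalon replicate 2 lay within the cortical range, and the log2 difference of 1.02 ± 0.39 did not pass (edgeR adjusted p = 0.0546). It was 1.37 without that library (adjusted p = 0.00757) and 1.17 without both libraries low in Y-linked genes (adjusted p = 0.0157). Mrpl19 (0.36 ± 0.22), Mrpl37 (0.30 ± 0.31), Mrpl27 (0.29 ± 0.46), Mrps15 (0.25 ± 0.45) and Mrpl9 (0.22 ± 0.38) had positive log2 differences that did not pass (SE). Of the paralogues Mrps18a, Mrps18b and Mrps18c, which occupy different sites of the mitochondrial ribosome, Mrps18a (-0.08 ± 0.40) and Mrps18c (-0.59 ± 0.49) did not pass and Mrps18b was too low to test.

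Transcript length moves with the regional difference in these libraries, and the classes differ in length: the median length of tested members was 737 bases for cytosolic and 1411 bases for mitochondrial genes. Among tested genes that are no member, the median log2 difference was -0.71 at 300 to 500 bases, -0.55 at 500 to 700 bases, -0.38 at 700 to 1000 bases, -0.26 at 1000 to 1500 bases and -0.04 at 1500 to 3000 bases. In the same bins, short to long, the cytosolic medians were -0.81, -0.76, -0.51, -0.60 and -0.42 and the mitochondrial medians -0.32 (1 gene), -0.59, -0.25, -0.41 and -0.20. Cytosolic medians lay below those of genes of the same length that are no member in all 5 bins. At 300 to 500 bases the shares of calls were alike, 5 of 12 cytosolic members lower (41.7%) beside 10 of 25 other genes (40%). In every longer bin the cytosolic share was the higher. The distance of medians was largest in the 2 bins above 1000 bases. These held 10 and 7 cytosolic members at a median of 60.2 and 63.5 CPM, against 13.4 and 19.5 CPM for the other genes. The mitochondrial medians lay between the cytosolic medians and zero in every bin, while single mitochondrial members lay outside that range. Against the other genes, the mitochondrial median was the lower at 500 to 700, 1000 to 1500 and 1500 to 3000 bases. It was the higher at 300 to 500 bases (1 gene) and 700 to 1000 bases. The 2 bins above 1000 bases held 12 and 15 mitochondrial members.

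**Figure D3:**
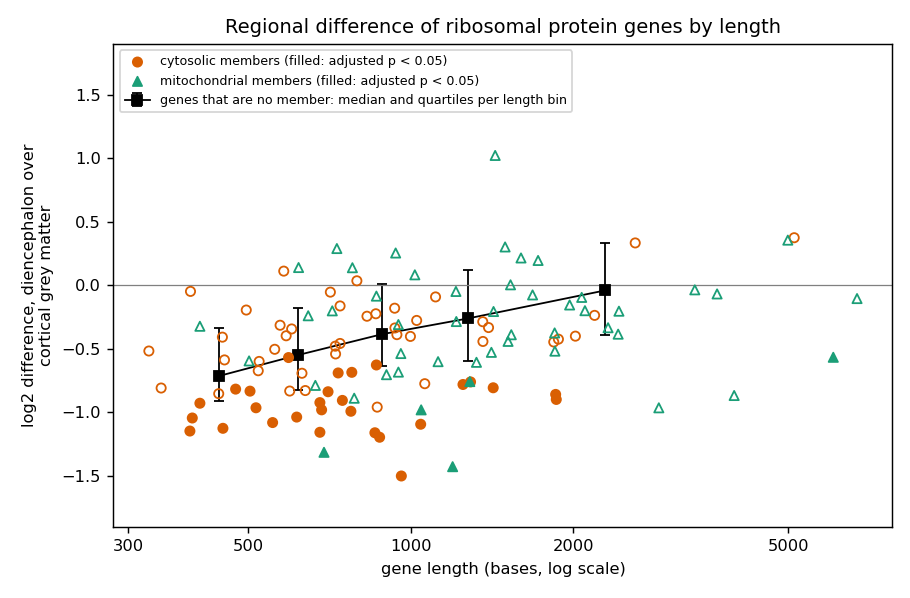
Log2 difference, diencephalon over cortical grey matter (vertical axis), against gene length in bases (log axis) for tested cytosolic (orange circles) and mitochondrial (green triangles) members, filled where the adjusted p is under 0.05; black squares give medians and quartiles of tested genes that are no member in 5 length bins from 300 to 3000 bases. The medians of the other genes climb from -0.71 to -0.04 with length, most cytosolic members lie below that line, and the mitochondrial members lie on both sides of it.

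In the window of 500 to 1000 bases, set to compare the classes at similar length, 17 of 40 tested cytosolic members were lower with a median log2 difference of -0.65. Of the 15 tested mitochondrial members there, 1 was lower, with a median of -0.31. Of the 334 tested genes of that length that are no member, 77 were lower (23.1%), with a median of -0.41. The cytosolic median was thus 0.34 below the mitochondrial one on the log2 scale, as a difference of -0.34 in which the mitochondrial members also lay slightly above the other short genes. By library, the median deviation of the cytosolic members minus that of the mitochondrial members was -0.08, -0.13 and -0.17 in the diencephalon and 0.27, 0.17 and -0.09 in cortical grey matter. Cortical grey matter replicate 3 fell within the diencephalon range, so the regions overlapped in this measure.

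The difference between the classes at similar length varied with the setting. It was -0.04 without diencephalon replicate 1, -0.07 without diencephalon replicate 3, -0.14 without diencephalon replicate 2, -0.19 without cortical grey matter replicate 1, -0.17 without cortical grey matter replicate 2 and -0.37 without cortical grey matter replicate 3. Leaving out a library also let more members pass the count filter, so these values rest on other genes as well as on other libraries. Over the same 40 cytosolic and 15 mitochondrial members the difference ran from -0.44 without diencephalon replicate 3 to -0.13 without diencephalon replicate 2, and it was -0.15 without cortical grey matter replicate 2 and -0.17 without cortical grey matter replicate 1. With a minimum count of 30 it was 0.02, with Mrpl18, Mrpl30 and Mrpl36 as the only mitochondrial members of the window tested. The mitochondrial members of the window were also lower in counts (median 8.41 CPM, against 20.4 CPM for cytosolic members). Among members of 10 to 40 CPM in the window, 31 cytosolic members had a median of -0.67 with 14 lower, and 7 mitochondrial members a median of -0.54 with 1 lower, a difference of -0.14. Of the 156 tested genes of this length and level that are no member, 30 were lower (19.2%), with a median of -0.41, so here the mitochondrial median lay below that of the other short genes. When each mitochondrial member was set beside the cytosolic member nearest in length, within 10%, there were 43 pairs drawing on 26 cytosolic genes, and the cytosolic partner had the lower log2 difference in 32 and the higher in 11, with a median gap of -0.30. The pairs are not independent, since some cytosolic genes recur. Rpl4 was the lower partner of Mrpl3, Mrpl37, Mrpl38, Mrpl44, Mrpl51, Mrps31 and Mrps5. In the other direction, Rpl7l1 was the higher partner of Mrpl11, Mrpl41 and Mrpl45.

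With the length trend of the other genes removed, the cytosolic median was -0.25 and the mitochondrial median -0.15. Then 9 of the 70 cytosolic members were lower (Rpl31, Rpl21, Rpsa, Rpl4, Rps7, Rps4x, Rps24 and Rpl6 among them), every one of them among the 28, where 15.1% of all tested genes were lower. A share of 9 in 70 is not above that background. The same correction left Mrps25, Mrpl30 and Mrps33 lower and made Mrps5 higher (log2 difference 1.20, edgeR adjusted p = 0.0264), where 13% of all tested genes were higher. The 9 are long or strongly different for their class: Rpl21 (1856 bases) and Rpsa (1861 bases) had log2 differences of -0.77 (adjusted p = 0.000183) and -0.81 (adjusted p = 0.000818) after the correction, and Rps7 -1.19 (adjusted p = 0.00226). The length trend itself moves with the contrast as a whole, and its part in the difference of the cytosolic members was described by this correction only.

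On the TPM scale the whole distribution shifts. The median log2 difference of log2(TPM + 1) over the genes tested on that scale was 0.22, and the cytosolic and mitochondrial medians were -0.43 and -0.13. Relative to the median of all genes the cytosolic members lay at -0.65, beside -0.62 in counts, where fewer members and genes were tested. Dividing a gene by its length changes both regions nearly alike, so TPM does not remove the length trend and is no test of it. On this scale 83 cytosolic and 77 mitochondrial members were tested among 14296 genes. There limma called 22 of the 83 cytosolic members lower and 0 higher, where 6.7% of all tested genes were lower and 14.8% higher. Of the 77 mitochondrial members limma called 4 lower and 2 higher. The higher ones were Mrpl20 (log2 difference 1.09 ± 0.31, SE, adjusted p = 0.0321) and Mrps23 (1.20 ± 0.27, adjusted p = 0.0137), which were too low in counts for the count test.

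**Figure D4:**
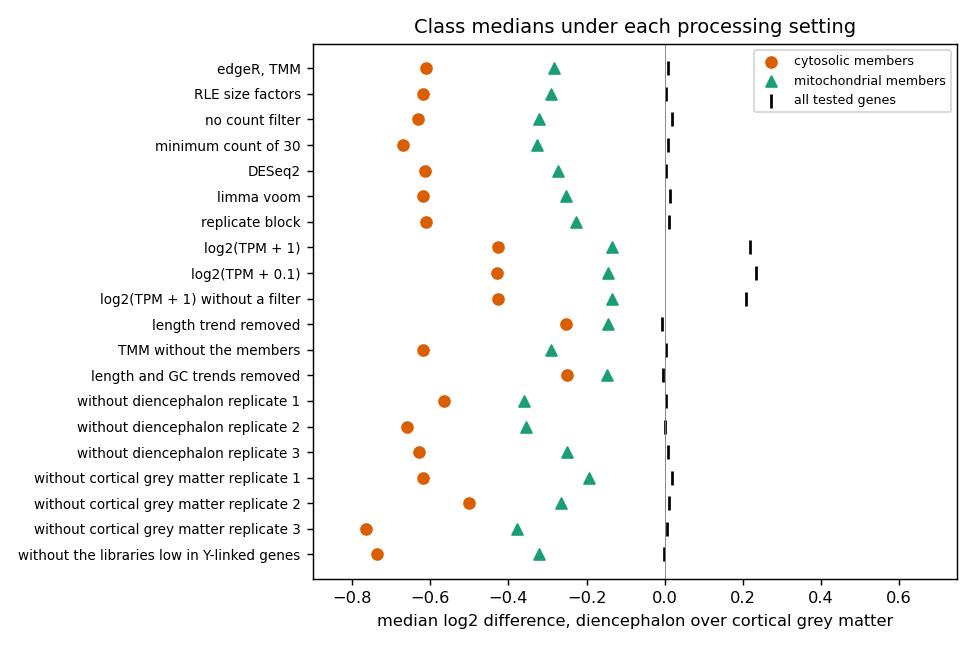
Median log2 difference, diencephalon over cortical grey matter (horizontal axis), of tested cytosolic members (orange circles), tested mitochondrial members (green triangles) and all tested genes (black ticks) under each processing setting (rows). The cytosolic median lies left of the mitochondrial median in every row, and both move toward zero when the length trend is removed (-0.25 and -0.15).

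Homologous proteins of the ribosomes give a pairing that does not rest on length. Of 27 families with a cytosolic and a mitochondrial member of the same ancestry, 16 had both members tested. The cytosolic member had the lower log2 difference in 8 and the higher in 8. Over these families the median was -0.37 for the cytosolic and -0.57 for the mitochondrial members. The median gap, cytosolic minus mitochondrial, was 0.04. Both members were called lower in 1 family, uL4 (Rpl4 -0.81 ± 0.14, Mrpl4 -0.76 ± 0.27; log2 difference, SE). In uS2 (Rpsa and Mrps2) and uS14 (Rps29 and Mrps14) the cytosolic member alone passed, with Mrps2 at -0.09 ± 0.20 and Mrps14 at -0.15 ± 0.27. In 2 families the mitochondrial member alone passed, among them uL30 (Rpl7 and Mrpl30), with Rpl7 at -0.18 ± 0.29. In uS5, which had the widest gap, Rps2 gave -0.40 ± 0.33 and Mrps5 1.02 ± 0.39, and neither passed. Whether the members of a pair differed from each other was not tested.

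The cytosolic members with a mitochondrial homologue were the milder part of their class. Of 25 tested, 6 were lower, with a median log2 difference of -0.44. Of the 45 tested without such a homologue 22 were lower, with a median of -0.69. Among all tested genes 14.8% were lower, and among tested genes of 500 to 1000 bases that are no member 23.1%. These cytosolic groups differ in length (median 830 and 710 bases) as well as in ancestry, and the difference between them was not tested. The mitochondrial class went the other way. Of 18 tested mitochondrial members with a homologue 3 were lower (median -0.57), and of 31 without one 2 were lower (median -0.24), also not tested. In TPM, the cytosolic member stood above its mitochondrial homologue in 25 of the 27 families; the exceptions were uL24 (Rpl26 and Mrpl24) and uL30 (Rpl7 and Mrpl30). Rpl26 had counts in cortical grey matter replicate 2 alone (7.99 CPM).

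**Figure D5:**
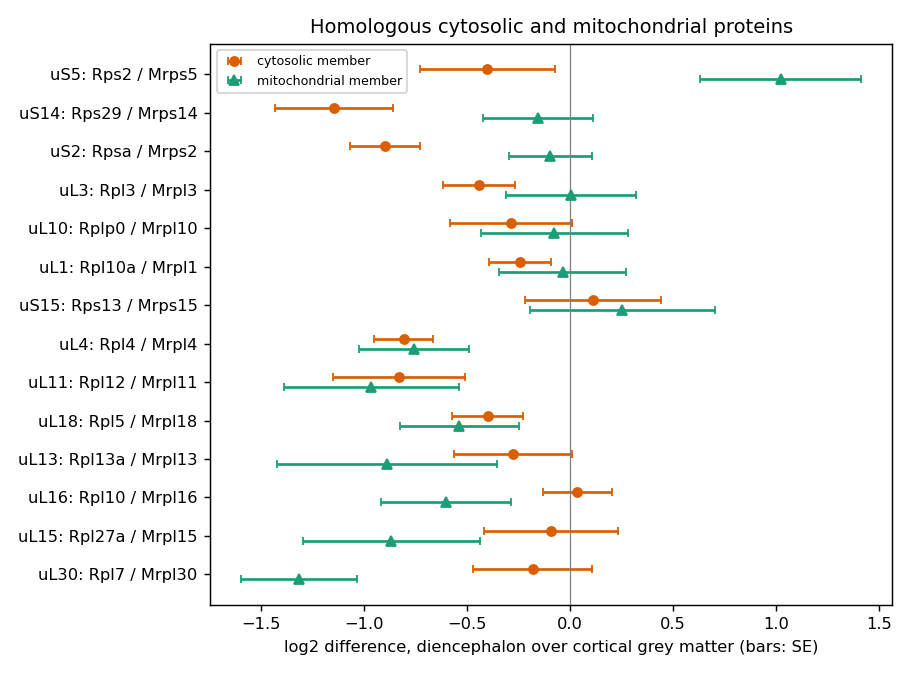
Log2 difference, diencephalon over cortical grey matter (horizontal axis, bars are SE), of the cytosolic (orange circle) and mitochondrial (green triangle) member of 14 of the 16 homologous families with both members tested, ordered from the lowest to the highest cytosolic minus mitochondrial gap. The order runs from uS5, where Mrps5 lies at 1.02 and Rps2 at -0.40, to uL30, where Rpl7 lies at -0.18 and Mrpl30 at -1.31.

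Cytosolic members were also split by the pyrimidine run at their start. Of the 23 tested cytosolic genes with the run, 6 were lower with a median log2 difference of -0.52. Of the 30 tested genes with a promoter entry but no run 15 were lower with a median of -0.69, a difference that was not tested. Among all tested genes 14.8% were lower, and among tested genes of 500 to 1000 bases that are no member 23.1%. Across the 70 tested cytosolic members, Spearman's rho of the log2 difference with length was 0.25 and with GC content 0.08, as a description over genes that share the same 6 libraries. Over the 10449 other tested genes it was 0.18 with length and -0.01 with GC content.

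Processed copies complicate the cytosolic class. Near-identical pseudogene transcripts (at least 95% identity over at least 100 bases) were annotated for 81 of the 87 cytosolic and 19 of the 77 mitochondrial members, so reads of most cytosolic members could be split or shared by the authors' counting. The expected counts were not whole in at least 1 library for 18 cytosolic and 5 mitochondrial members. The other 69 cytosolic members had whole counts in all 6 libraries, and the 57 of them that were tested had a median log2 difference of -0.59. The 13 tested cytosolic members with a count that was not whole had a median of -0.82. The 36 tested cytosolic members with 5 or more copies had a median log2 difference of -0.66, beside -0.61 for the 68 with 1 or more. Only 2 members without such a copy were tested, one of them Rpl41 (-1.12).

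Other genes of the translation machinery were described from lists, whose counts stand beside 14.8% lower and 14.9% higher among all tested genes. Among the other genes whose mRNAs are known as TOP mRNAs, translation factors and related proteins, 4 of 17 tested were lower and 0 higher, with a median log2 difference of -0.39. They included the elongation factor Eef1a1 (-0.69 ± 0.13, edgeR adjusted p = 0.000302), the nucleolar chaperone Npm1 (-0.73 ± 0.13, edgeR adjusted p = 0.000227) and the translationally controlled protein Tpt1 (-0.76 ± 0.19, edgeR adjusted p = 0.00435). Of 31 tested initiation factors 5 were lower, a share near that background, and 1 was higher (median -0.28). The lower ones included Eif3a, a scaffold of the initiation factor 3 complex (-0.80 ± 0.14, edgeR adjusted p = 0.000181), and the helicase Eif4a1 (-0.73 ± 0.21, edgeR adjusted p = 0.0105). Its paralogue Eif4a2 was the higher one (0.51 ± 0.14, edgeR adjusted p = 0.00708).

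Ribosomal proteins under other names gave 1 of 3 tested cytosolic genes lower and 0 higher (median -0.34). Of 5 tested mitochondrial ones, 0 passed in either direction (median -0.39), Ptcd3 (-0.39 ± 0.26), Ict1 (-0.54 ± 0.38) and Aurkaip1 (-0.46 ± 0.46) among them. Of 32 tested ribosome biogenesis genes 3 were lower and 0 higher (median -0.08): the nucleolar protein Ncl (-0.43 ± 0.12, edgeR adjusted p = 0.00966), Rrp1 (-0.51 ± 0.16, edgeR adjusted p = 0.0184) and Bms1 (-0.67 ± 0.23, edgeR adjusted p = 0.0333). Of 13 tested RNA polymerase I genes 0 passed (median -0.11), with Rrn3 at 0.61 ± 0.26, Polr1d at -0.86 ± 0.40 and Taf1b at 0.83 ± 0.39. The precursor of ribosomal RNA, Rn45s, had 38375, 34166 and 44053 CPM in the diencephalon and 17985, 19144 and 24017 CPM in cortical grey matter, the opposite direction (log2 difference 0.93 ± 0.18, edgeR adjusted p = 0.000478). The part of ribosomal RNA reads in the result was not tested.

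Of 18 tested regulators of mTOR and of TOP mRNAs, 1 was lower and 5 were higher (median 0.23), beside 14.8% lower and 14.9% higher among all tested genes. The higher ones included the TOP-binding proteins Tia1 (0.92 ± 0.18, edgeR adjusted p = 0.000587) and Tial1 (1.08 ± 0.23, edgeR adjusted p = 0.00118) and the S6 kinase Rps6kb1 (0.68 ± 0.15, edgeR adjusted p = 0.00187). The median transcript of this list was 4910 bases long, well above that of the members.

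On the mitochondrial side, 11 tested translation factors had 1 lower, the recycling factor Mrrf (-1.03 ± 0.37, edgeR adjusted p = 0.0385), and 1 higher, the elongation factor 4 homologue Guf1 (0.78 ± 0.27, edgeR adjusted p = 0.0304), with Gfm2 at 0.70 ± 0.30 not passing and a median of 0.01. Of 11 tested mitochondrial tRNA synthetase and related genes 2 were lower and 0 higher (median -0.07), Fars2 (-1.33 ± 0.40, edgeR adjusted p = 0.0138) and Gatc (-0.63 ± 0.21, edgeR adjusted p = 0.0282), while Yars2 (-0.76 ± 0.37) did not pass. Of 11 tested genes of the list for assembly of the mitochondrial ribosome 1 was lower and 0 higher (median -0.15), the GTPase Eral1 (-1.07 ± 0.37, edgeR adjusted p = 0.0339), with Ngrn (-0.68 ± 0.44) not passing. Lias, an enzyme of lipoate synthesis that this list also holds, did not pass either (-0.78 ± 0.48). Of 10 tested genes of mitochondrial transcription and biogenesis 1 was lower and 1 higher (median 0.14). These were the coactivators Ppargc1a (-0.34 ± 0.12, edgeR adjusted p = 0.0396) and Ppargc1b (0.86 ± 0.19, edgeR adjusted p = 0.00149), and Tfb2m (0.46 ± 0.20) did not pass.

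Markers of astrocytes and of other cells moved with the comparison. Their calls stand beside 14.8% lower and 14.9% higher among all tested genes. All 15 listed astrocyte markers were tested, 8 lower and 1 higher in the diencephalon, and their sum was 21738 to 25281 CPM in the diencephalon and 31192 to 39943 CPM in cortical grey matter. The summed meningeal markers were 816 to 1229 CPM in the diencephalon and 4394 to 8028 CPM in cortical grey matter, with 8 of 9 lower. Excitatory cortical neuron markers summed to 635 to 985 CPM in the diencephalon and 4807 to 5688 CPM in cortical grey matter, all 7 tested lower and Emx1 at 0 in every library. General neuron markers summed to 2464 to 2553 CPM in the diencephalon and 3216 to 4363 CPM in cortical grey matter, with 2 of 12 lower and 3 higher. Progenitor markers summed to 74.2 to 81.7 CPM in the diencephalon and 150 to 184 CPM in cortical grey matter (4 of 5 lower), microglial markers to 298 to 535 CPM in the diencephalon and 412 to 989 CPM in cortical grey matter (2 of 8 tested lower), and vascular markers to 91.8 to 119 CPM in the diencephalon and 150 to 260 CPM in cortical grey matter (1 of 5 tested lower).

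In the other direction, oligodendrocyte markers summed to 1734 to 2317 CPM in the diencephalon and 794 to 1018 CPM in cortical grey matter (7 of 8 tested higher), subcortical neuron markers to 400 to 511 CPM in the diencephalon and 124 to 153 CPM in cortical grey matter (4 of 5 tested higher), and ependymal and choroid markers to 137 to 170 CPM in the diencephalon and 4.35 to 31.4 CPM in cortical grey matter (4 of 5 tested higher). Blood markers summed to 54.3 to 117 CPM in the diencephalon and 55.9 to 69.8 CPM in cortical grey matter, with 0 of 2 tested passing. Apart from Emx1, no marker of these lists was at 0 in all 6 libraries. The part of these cells in the regional difference of the ribosomal protein mRNAs was not tested.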

How the data were processed

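Ribosome-bound mRNA was measured in 6 libraries, amplified as cDNA with the Ovation kit and sequenced on an Ion Proton, per the labels' protocols. RSEM and build mm9 are named in the submitters' processing notes, with tool versions, aligner and strandedness not given in the sources used here. For each gene the files the authors deposited hold an expected count, a TPM and a length, per the file headers; FPKM was not used. Rounding the deposited expected counts to whole numbers changed a library total by at most 6.94. No molecular identifiers are named in the labels, so floors cover counting error only.

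Genes passing filterByExpr (minimum count 10) entered edgeR 4.0.16 with TMM scaling (quasi-likelihood, robust, region as the only term; R 4.3.3), with Benjamini-Hochberg adjustment at 0.05 over all 10568 tested genes. The filter asks for about the minimum count in at least 3 libraries of either region. A member could therefore enter through the region where it was higher. Standard errors came from the F statistic of the edgeR fit. Alternatives were RLE factors, DESeq2 1.42.0, voom with limma 3.58.1, a replicate block, a minimum count of 30 or none, and TMM factors without the members. The deposited TPM values, which are scaled by length and library, were tested with limma after adding a pseudocount of 1 or 0.1 (log2), with and without a floor of 1 on the mean TPM. Each library was left out in turn, other length windows were tried, and a length trend, a natural spline with 5 degrees of freedom fitted on genes that are no member, was removed. Removing GC content too, the range of 10 to 40 CPM, the split by pseudogene copies, leaving out a library over a constant set of members, and leaving out the libraries whose Y-linked sum was under 50 CPM were added after the data were seen. GC content and pseudogene similarity (minimap2 2.31) came from GENCODE transcripts of GRCm38, by symbol; all 164 members had a GC value. The fit was tested on simulated counts.

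Members, lists and tests were chosen with earlier results of these data known. Named genes were the 6 lowest and 6 highest tested members of each class, the 3 highest in TPM, paralogue pairs, stalk proteins, the homologous pair with both members called and those with the widest gaps, and up to 3 genes of each translation list by adjusted p. Other members were named after their values were seen. Lists covered translation, ribosome assembly, mitochondrial expression and cell type markers. A few members are counted in the totals but not reported by name here.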

Additional observations from a re-analysis of the deposited data

How the results depend on the processing

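All 28 cytosolic and 5 mitochondrial members called lower kept a negative difference in each of the 19 alternative fits in which they were tested, and 9 cytosolic (Rpl21, Rpl31, Rpl4, Rpl6, Rps24, Rps4x, Rps7 and Rpsa among them) and 2 mitochondrial (Mrpl30 and Mrps33) passed in every one of them. The count of cytosolic members lower was 9 with the length trend removed, also with GC content removed too, and ran from 17 to 32 with a library left out. The count of mitochondrial members lower was 2 with DESeq2, 3 with the length trend removed (with or without GC content) and 3 to 6 with a library left out. The cytosolic count higher was 1 (Rpl10) with length and GC trends removed and 0 to 1 with a library left out. The mitochondrial count higher was 2 in the 3 TPM settings, 1 (Mrps5) with no filter, with the length trend removed, with length and GC trends removed and without the libraries low in Y-linked genes, and 0 to 1 with a library left out.

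The cytosolic median was -0.43 in the 3 TPM settings, in 2 of which the genes had a mean TPM of at least 1, -0.25 with the length trend removed with or without GC content, -0.79 over the 2 tested members with no near-identical pseudogene, -0.74 without the libraries low in Y-linked genes, and -0.76 to -0.50 with a library left out. The mitochondrial median ran from -0.38 to -0.19 with a library left out. No mitochondrial member reached 50 CPM, so that alternative gave it no value. The difference between the classes at 500 to 1000 bases was 0.023 with a minimum count of 30, -0.11 on log2(TPM + 1) with and without the filter, -0.10 on log2(TPM + 0.1), -0.19 with the length trend removed with or without GC content, -0.14 at 10 to 40 CPM, and -0.37 to -0.044 with a library left out. Over the members tested with all 6 libraries it ran from -0.44 to -0.13 with a library left out. With a minimum count of 30 fewer members of any length enter (42 cytosolic, 14 mitochondrial). In the window of 500 to 1000 bases the mitochondrial ones were then Mrpl18, Mrpl30 and Mrpl36 alone. With a library left out more members of any length pass the filter (71 to 73 cytosolic, 55 to 60 mitochondrial). The cause of these changes was not tested.

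The replicate numbers did not pair the libraries: deviations of same-numbered libraries correlated at 0.059, -0.099 and 0.0037 (replicates 1, 2 and 3). With the replicate block, 27 cytosolic and 4 mitochondrial members were lower.

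The sign of 12 named members, all uncalled, changed in some setting. The log2 differences were 0.22 for Rpl29, 0.17 for Rps21 (0.18 with a pseudocount of 0.1), 0.18 for Mrps18a, 0.072 for Mrps14 (0.074 with a pseudocount of 0.1) and 0.12 for Mrps2 on TPM scales. With the length trend removed they were 0.37 for Rpl29, 0.58 for Rps21, 0.30 for Mrps21, 0.13 for Rpl7 and 0.25 for Mrps18a, and with GC content too 0.35, 0.59, 0.32, 0.15 and 0.23 for the same genes. Without the libraries low in Y-linked genes they were 0.024 for Rps21, -0.086 for Rpl10, -0.038 for Rps13, -0.25 for Mrpl27, -0.028 for Mrpl37 and 0.11 for Mrps18a. With a library left out they ran from -0.29 to 0.12 for Rpl29, -0.29 to 0.20 for Rps21, -0.14 to 0.16 for Rpl10, -0.071 to 0.82 for Mrps15, -0.079 to 0.84 for Mrpl27, -0.51 to 0.0035 for Rpl7, -0.33 to 0.16 for Mrps18a, -0.35 to 0.029 for Mrps14 and -0.26 to 0.14 for Mrps2. Of the other values of members on the naming list above, 697 kept direction and side of the threshold, 46 no longer passed and 9 newly passed. These counts leave out members named after their values were seen. Among those, Rpl21 and Rpl6 passed in all 19 alternative fits. Others often lost their call: Rpl32 passed in 6 of 18 fits, Rpl17 in 7 of 18, Rps16 in 8 of 18, and Rpl13 and Mrps25 in 9 of 19 each. Counts limit the mitochondrial class most, with a median of 10.1 CPM.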

Other observations

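Genes with "-ps" in their symbol stayed outside the members. Summed over the 7 of them in the files, they held 13.6, 4.22 and 9.93 CPM in the diencephalon libraries and 16.6, 19.7 and 3.11 CPM in the cortical grey matter libraries. The highest was Rpl34-ps1, with 7.49, 1.58 and 3.66 CPM in the diencephalon and 6.98, 4.79 and 0 CPM in cortical grey matter, while Rpl34 itself was at 0 in all 3 diencephalon libraries and at 0.873, 2.13 and 3.73 CPM in cortical grey matter. How reads were divided between Rpl34 and its copy is not given in the sources used here.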
